A study of Mus musculus with 6 samples.

Results

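The 36 genes described here belong to the unfolded protein response and the integrated stress response, the programmes by which a cell answers misfolded protein in the endoplasmic reticulum (ER), amino acid shortage or heme shortage. They were taken by gene symbol from the 24404 genes of a table of normalised counts, and all 36 were in it. The rule matched symbols only, but the symbols were listed with earlier results of these data known. By role, 14 code for ER chaperones and folding enzymes, 4 for ER-associated degradation (ERAD), 4 for stress sensors and the transcription factor Xbp1, and 14 for ATF4 and genes of its arm. The RNA came from biliary epithelial cells, which line the bile ducts of the liver, of adult C57BL/6 mice given DDC for 1 week. DDC (diethoxycarbonyl-dihydrocollidine) blocks heme synthesis and injures bile ducts. There were 3 libraries of Klf5 LKO cells (genotype Alfp-CreTg/+;Klf5flox/flox) and 3 of control cells (Alfp-Cre+/+;Klf5flox/flox). Both groups therefore carried floxed Klf5 and both were given DDC, and an untreated group was not analysed here. The Alfp promoter drives Cre in the epithelial lineage of the liver, hepatocytes included, so loss of Klf5 was not limited to bile ducts, and effects of Cre and of Klf5 loss cannot be told apart. The labels do not state that each library is a separate animal, so the p-values measure the spread between these libraries, which may be partly technical.

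In the unfolded protein response, 3 sensors in the ER membrane act in parallel. IRE1 (gene Ern1) splices Xbp1 mRNA, ATF6 is released by cleavage to become a transcription factor, and both raise the genes for chaperones and ERAD. PERK (gene Eif2ak3) phosphorylates the translation factor eIF2-alpha, as do the kinases for heme shortage, amino acid shortage and double-stranded RNA. General translation then falls while ATF4 mRNA is translated, and ATF4 raises genes for amino acid supply and for feedback. Splicing, cleavage, phosphorylation and translation are not measured by counts per gene, so the data below bear on mRNA levels only.

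Total reads assigned to genes were 17161087 to 24784167 in Klf5 LKO and 11726934 to 20066745 in control. Klf5 itself had normalised counts of 977, 1192 and 1183 in Klf5 LKO, against 2056, 2018 and 2316 in control (log2 fold change -0.93, adjusted p = 0.0103 by limma), and its call ended without control 1, 2 or 3 (adjusted p = 0.0671, 0.0702 and 0.0573) at log2 fold changes of -0.96, -0.97 and -0.87. In bulk RNA, fewer cells of a type and less RNA per cell cannot be told apart. Bile duct markers were abundant in both groups, with Epcam at 23402 to 26173 in Klf5 LKO and 25301 to 28906 in control. Their level was lower in Klf5 LKO for 7 of 10. The list, mostly Spp1, summed to 406025 to 462113 in Klf5 LKO and 467125 to 586781 in control, narrowly without overlap. Spp1 itself overlapped, at 338295, 288036 and 357594 in Klf5 LKO, against 456086, 360874 and 343625 in control (adjusted p = 0.754 by limma). By limma and by edgeR, Sctr passed higher and Tspan8 lower, while DESeq2 called 2 higher (Sctr and Cftr) and 3 lower (Tspan8, Krt19 and Krt7). Krt19 had 6139, 10188.5 and 8708 in Klf5 LKO, against 14659, 14735 and 11691 in control (log2 fold change -0.74, adjusted p = 0.0988 by limma and 0.00192 by DESeq2). The part of these marker differences in the results was not tested. The libraries differed in leukocyte transcripts, although 0 of 9 markers passed by limma, DESeq2 or edgeR and 0 had an unadjusted p under 0.05. The mean log2 level of these markers was 7.46, 4.68 and 5.91 in Klf5 LKO, against 8.55, 7.37 and 5.18 in control. Plasma cells hold a large ER. Of 10 marker symbols searched for, 6 were among the counted genes, and the immunoglobulin symbols Igkc, Ighm and Igha were not. Of the 6, 4 were abundant enough to test and 0 passed by limma, DESeq2 or edgeR. Mzb1 had 7.45 to 12.8 in Klf5 LKO and 1.02 to 31.3 in control, Jchain varied most, at 969, 15.7 and 291 in Klf5 LKO, against 421, 147 and 0 in control, and Prdm1 was listed at 0 in all 6 libraries. The list summed to 3118 to 3846 in Klf5 LKO and 3981 to 4323 in control, mostly Sdc1, which epithelial cells also express. The part of these cells in the results was not tested. Of 10 hepatocyte markers 8 were tested and 1 passed, Serpina1c, higher in Klf5 LKO. Ass1 had at most 0.745 in Klf5 LKO and 2.03 in control, and the list, mostly Alb, summed to 13524 to 17384 in Klf5 LKO and 11558 to 15025 in control. The stellate cell and fibroblast list summed to 31.9 to 80.5 in Klf5 LKO and 4.74 to 51.8 in control, and the endothelial list to 55.9 to 210 in Klf5 LKO and 91.0 to 444 in control. Of these lists 2 of 8 stellate cell and fibroblast genes and 7 of 7 endothelial genes were abundant enough to test, 0 passed by limma, DESeq2 or edgeR, and 4 of the 8 were at 0 in all libraries. Among the endothelial genes, 3 had higher and 4 lower means in Klf5 LKO. Only Pecam1 had an unadjusted limma p under 0.05. It had 0, 9 and 1 reads in Klf5 LKO, against 41, 12 and 34 in control, without overlap (log2 fold change -3.58, adjusted p = 0.231 by limma).

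The promoters of the ER chaperone and ERAD genes differ from those of the ATF4 arm in the response elements they hold, and the elements are printed here to show how the arms set against each other below differ in sequence. RefSeq promoters on GRCm38.p6, from 250 bases before to 50 bases after the start site, were at hand for 31 of the 36 genes. The ER stress response element, CCAAT and CCACG separated by 9 bases, is the element through which ATF6 acts. Searched on both strands, it was in the promoters of 8 of 16 ER chaperone and ERAD genes, in 0 of 3 sensor genes and in 0 of 12 ATF4 arm genes, against 0.137% of 27025 genes. The fixed letters are in capitals, in the orientation of the element.
Hspa5, chr2:34772017-34772051, plus strand: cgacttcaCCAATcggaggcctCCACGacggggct
Hsp90b1, chr10:86705630-86705664, minus strand: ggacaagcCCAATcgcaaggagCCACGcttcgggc
Hsp90b1, chr10:86705525-86705559, plus strand: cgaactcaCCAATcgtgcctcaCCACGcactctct
Calr, chr8:84847067-84847101, plus strand: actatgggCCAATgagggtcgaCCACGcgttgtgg
Canx, chr11:50325792-50325826, minus strand: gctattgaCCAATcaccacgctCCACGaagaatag
Pdia6, chr12:17266483-17266517, plus strand: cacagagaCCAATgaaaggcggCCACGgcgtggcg
Dnajc3, chr14:118937819-118937853, plus strand: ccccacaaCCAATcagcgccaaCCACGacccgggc
Creld2, chr15:88819512-88819546, minus strand: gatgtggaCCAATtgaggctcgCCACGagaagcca
Syvn1, chr19:6046524-6046558, plus strand: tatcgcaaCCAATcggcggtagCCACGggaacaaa

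A shorter form of this element, with ATTGG and CCACG separated by 1 base, was looked for after the data were seen and was in 2 ER chaperone and ERAD promoters and in 0.0444% of genes.
Herpud1, chr8:94386369-94386395, plus strand: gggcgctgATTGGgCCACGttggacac
Dnajb11, chr16:22857844-22857870, plus strand: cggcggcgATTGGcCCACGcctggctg
Both forms contain CCACG, which alone is common (35.5% of genes) and was in 15 of 16 ER chaperone and ERAD genes and 9 of 12 ATF4 arm genes.

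The C/EBP-ATF composite element, TGATGNAAN, is the element that ATF4 binds together with C/EBP proteins. It was in the promoters of 5 of 12 ATF4 arm genes, in 1 of 16 ER chaperone and ERAD genes and in 4.50% of all genes. The matches of all 6 genes are shown. Their log2 fold changes in Klf5 LKO against control were 0.80 for Trib3, 0.82 for Chac1, 0.48 for Asns and 0.42 for Nupr1. Vldlr had 0.15 and Herpud1 0.39, and none of the 6 passed. ATF4 arm genes with a promoter but no match had 1.14 for Ppp1r15a, 0.70 for Ddit3, 0.40 for Atf4 and 0.38 for Cebpb. Atf5, Psat1 and Phgdh, also without a match, had 0.029, 0.0082 and -0.18.
Trib3, chr2:152344031-152344055, plus strand: cgcccggcTGATGtAAacctgagct
Chac1, chr2:119351040-119351064, minus strand: ggcaggagTGATGcAAcggcaggga
Asns, chr6:7693216-7693240, minus strand: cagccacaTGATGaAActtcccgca
Nupr1, chr7:126625565-126625589, plus strand: gccctgtcTGATGcAAtctggccct
Vldlr, chr19:27216811-27216835, minus strand: aggagcgcTGATGcAActattgctg
Herpud1, chr8:94386308-94386332, minus strand: gtgcgggcTGATGcAAcccgccgtg

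A match describes letters in the window and does not show that a factor binds there. Elements outside the window were not searched for.

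Ppp1r15a was the 1 gene of the 36 that passed the test. It rose in Klf5 LKO, and 0 of the 36 fell. Its normalised counts were 3024, 1572 and 2604 in Klf5 LKO, compared with 980.3, 1138 and 1040.4 in control. All 3 Klf5 LKO libraries were above all 3 control libraries, and the Klf5 LKO libraries were the more spread. The mean was 2399.9 ± 747 in Klf5 LKO, against 1053 ± 79.6 in control (SD, n = 3 each). This was a 2.20-fold difference, or 1.14 on the log2 scale with an SE of 0.21 and a 95% confidence interval of 0.68 to 1.59 (adjusted p = 0.0322 by limma over all 13490 tested genes). By this test 0.652% of all tested genes were called, 0.163% higher and 0.489% lower. At an unadjusted p under 0.05, 6 of the 36 were higher and 0 lower, against 4.95% and 5.92% of all tested genes. DESeq2 called 1 of the 36 higher and 0 lower (0.883% and 1.6% of all genes), edgeR 1 and 0 (0.133% and 0.489%) and limma-voom 0 higher (0.111%). The authors' deposited table calls 2 of the 36 higher and 0 lower, where 0.903% of genes are higher and 1.51% lower. Ppp1r15a codes for GADD34, the stress-induced subunit that brings a phosphatase to eIF2-alpha and ends the block of translation. Ppp1r15a lies on chromosome 7, 45522916 to 45526268, minus strand, mm10.

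The call of Ppp1r15a depended on the libraries used. It was kept without Klf5 LKO 2 (adjusted p = 0.00316), the lowest of its group, and ended without Klf5 LKO 1 (0.0551), Klf5 LKO 3 (0.120), control 1 (0.164), control 2 (0.129) or control 3 (0.119), all by limma, with log2 fold changes of 0.94 to 1.42. It also ended with no filter on low counts (0.0539). Calls higher over all tested genes were 22 with all libraries, and 22, 11 and 9 without Klf5 LKO 1, 2 or 3. They were 4, 1 and 10 without control 1, 2 or 3, and 13 with no filter. DESeq2 and edgeR on the recovered reads also called it (adjusted p = 3.58e-06 and 0.0398), limma-voom did not (0.0593), and the authors' deposited table gives it a log2 fold change of 0.96 with adjusted p = 5.12e-06. Its constitutive relative Ppp1r15b, which codes for the always-present subunit CReP, had normalised counts of 1759.9, 1707 and 2135 in Klf5 LKO, against 1623, 1920.3 and 1794 in control. These values overlap (log2 fold change 0.066, 95% confidence interval -0.24 to 0.37, adjusted p = 0.905). Of its exon bases 11.4% overlap exons of Gm26616.

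The Ppp1r15a promoter (chr7:45526219-45526518, minus strand) is printed whole because this gene carries the single call. Neither the ER stress response element nor the C/EBP-ATF element is in it, and the capitals mark TGACGTCA, the cAMP response element, a palindrome bound by CREB and ATF factors, which ends 5 bases before the start site and is in 2.03% of genes. This motif was looked for after the promoter had been read.
Ppp1r15a promoter: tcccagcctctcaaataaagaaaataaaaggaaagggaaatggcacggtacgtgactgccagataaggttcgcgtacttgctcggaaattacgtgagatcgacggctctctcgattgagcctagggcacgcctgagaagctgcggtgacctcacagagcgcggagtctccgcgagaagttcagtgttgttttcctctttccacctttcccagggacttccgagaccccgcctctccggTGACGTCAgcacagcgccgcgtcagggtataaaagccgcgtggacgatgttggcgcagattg

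Trib3 codes for a pseudokinase that is induced by ATF4 and CHOP and restrains them. It had 439, 392 and 344 in Klf5 LKO, against 239, 231 and 203 in control, so that the groups did not overlap and both were tight. The log2 fold change was 0.80 (SE 0.22, 95% confidence interval 0.33 to 1.27), or 1.74-fold, and did not pass (adjusted p = 0.156 by limma). The authors' deposited table puts it past the threshold (adjusted p = 0.0427, log2 fold change 0.61), whereas DESeq2 on the recovered reads gave 0.0565 and edgeR 0.153. It lies on chromosome 2, 152337422 to 152344032, minus strand.

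**Figure D1:**
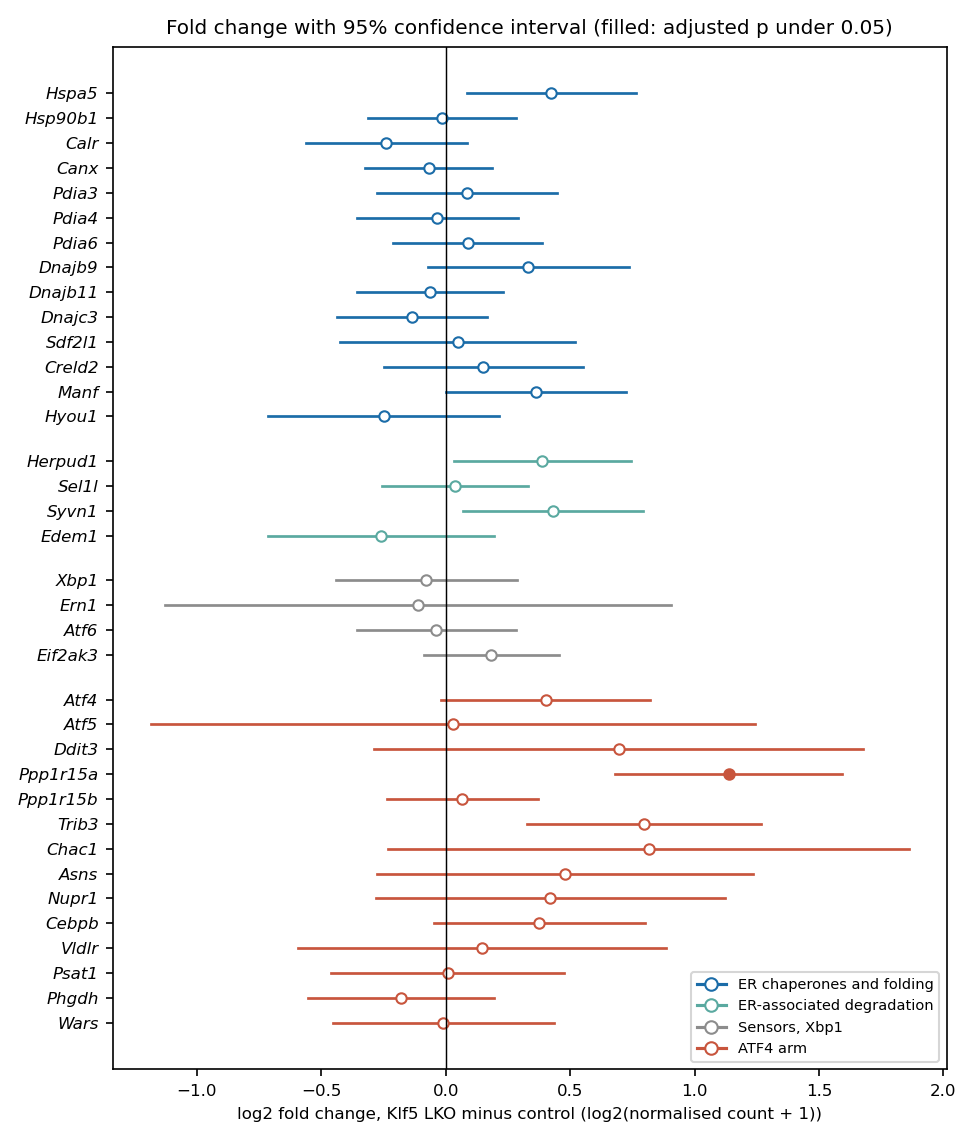
Log2 fold change of Klf5 LKO against control (x axis, on log2(normalised count + 1)) for the 36 genes (y axis), grouped by role, with the 95% confidence interval as a line. Ppp1r15a, at 1.14, is the filled point that passed the test, Trib3, at 0.80, lies next to it with Chac1 and Ddit3, and the ER chaperones lie between -0.25 and 0.42.

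By the median log2 fold change, the ATF4 arm stood higher in Klf5 LKO than the ER chaperone and ERAD genes did. The median log2 fold change was 0.39 over the 14 ATF4 arm genes and 0.043 over the 18 ER chaperone and ERAD genes, against -0.0052 over all tested genes. The mean was higher in Klf5 LKO for 12 of the 14 (85.7%) and 10 of the 18 (55.6%), against 49.2% of all tested genes. At an unadjusted limma p under 0.05, 2 of the 14 (14.3%) and 4 of the 18 (22.2%) were higher, against 4.95%. Without overlap and higher were 2 of the 14 (14.3%) and 3 of the 18 (16.7%), against 7.72%. Neither of these shares was larger in the ATF4 arm, which held the 1 called gene. The mean log2 level of the 14 was 9.23, 9.11 and 9.18 in Klf5 LKO, compared with 8.75, 8.74 and 8.93 in control. The 3 Klf5 LKO libraries were above the 3 control libraries, with control 3 nearest to them. The mean log2 level of the 18 was 11.55, 11.41 and 11.45 in Klf5 LKO, against 11.40, 11.50 and 11.29 in control, which overlap. The difference of the means, ATF4 arm minus ER chaperone and ERAD genes, was -2.31, -2.30 and -2.27 in Klf5 LKO, against -2.65, -2.76 and -2.37 in control. The difference of the medians was 0.35, and it was 0.14 without control 2 and 0.23 without Klf5 LKO 2. No test was made on these summaries, because the genes were chosen with earlier results of these data known.

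Immediate early genes respond within minutes to tissue dissociation as well as to growth signals. The list of 13 also holds the heat shock genes Hspa1a and Hspa1b, taken as dissociation genes, and they enter its sum and score. Of the 13, 11 (84.6%) also had higher means in Klf5 LKO, against 49.2% of all tested genes. Their median log2 fold change, over all 13, was 0.17. None of the 13 passed with limma or edgeR. At an unadjusted limma p under 0.05, 5 were higher (38.5%) and 0 lower, against 4.95% and 5.92% of all tested genes. Hspa1a was among these 5 and Hspa1b was not (log2 fold changes 0.64 and 0.17). DESeq2 called 3 higher, against 0.883% of all genes. The 2 with lower means in Klf5 LKO were Fos and Dusp1, at log2 fold changes of -0.12 and -0.24 (adjusted p = 0.895 and 0.770 by limma). The mean log2 level of the 13 was 12.29, 12.15 and 12.72 in Klf5 LKO, compared with 12.06, 12.03 and 12.39 in control, and their sum was 115436 to 172052 in Klf5 LKO and 105886 to 128930 in control. The scores overlap between groups only through control 3, which was also the highest control library for the ATF4 arm. Egr1 had 29216, 23671 and 31785 in Klf5 LKO, against 19648, 17431 and 21185 in control, and Jun 32506, 24646 and 35565 in Klf5 LKO, against 21432, 21368 and 23500.5 in control. When the score was entered as a covariate, the median log2 fold change was 0.16 for the ATF4 arm. It was 0.078 for the ER chaperone and ERAD genes, and Ppp1r15a was at 1.01 (adjusted p = 0.150 by limma). Over all tested genes this fit called 8 higher and 29 lower, against 22 and 66 without a covariate. With the leukocyte score as the covariate, Ppp1r15a kept its call (log2 fold change 1.26, adjusted p = 0.0268). That fit called 15 higher and 50 lower over all tested genes. The part of either in the differences was not tested beyond these fits.

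**Figure D2:**
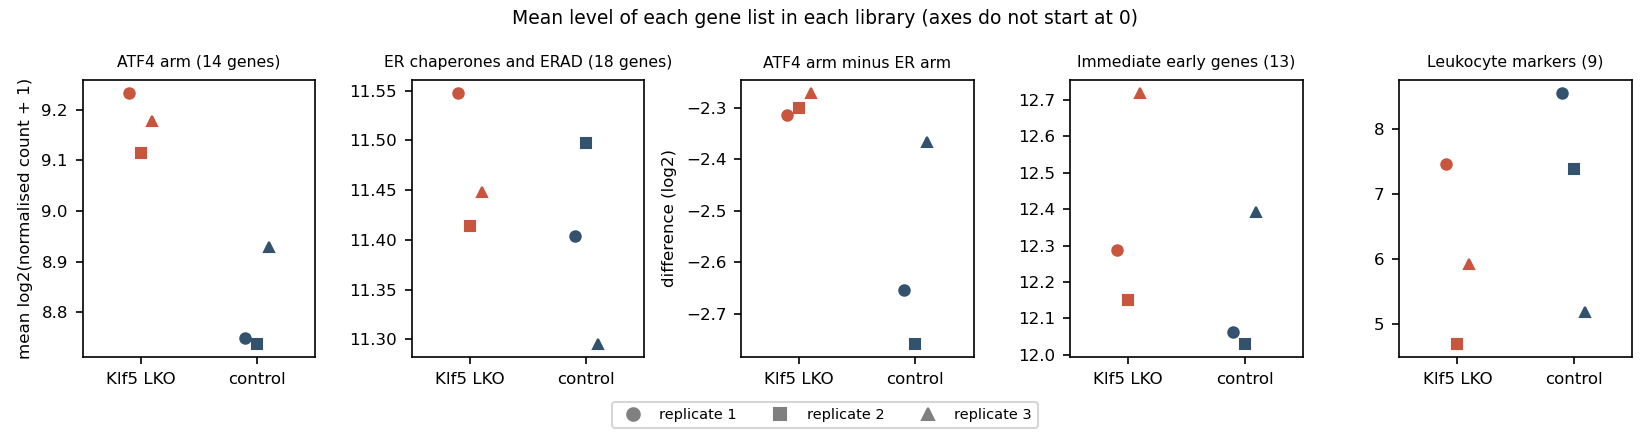
Mean log2(normalised count + 1) of each gene list in each library (y axes, which do not start at 0), with Klf5 LKO left of control and a symbol per replicate. The ATF4 arm lies at 9.11 to 9.23 in Klf5 LKO, above the 8.74 to 8.93 of control, while the ER chaperone and ERAD panel overlaps, as do the immediate early and leukocyte panels. The immediate early panel includes Hspa1a and Hspa1b.

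Atf4, the transcription factor at the centre of the arm, had 1191, 1519 and 1919 in Klf5 LKO, compared with 1023, 1039.9 and 1414 in control. The groups overlapped through control 3, and the log2 fold change of 0.40 (95% confidence interval -0.018 to 0.82) did not pass (adjusted p = 0.484). Ddit3, which codes for CHOP, a factor that carries the response towards cell death, had 177, 88.7 and 215 in Klf5 LKO, against 70.8, 64.8 and 171 in control. Replicate 3 was the highest library of both groups, for Ddit3 as for Atf4, and the interval was wide (log2 fold change 0.70, 95% confidence interval -0.29 to 1.68, adjusted p = 0.630). Atf5, a relative of Atf4 under the same kind of translational control, was scarce, at 28.8, 31.3 and 34.1 in Klf5 LKO, against 24.8, 25.3 and 45.7 in control.

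Chac1, a glutathione-degrading enzyme induced by ATF4, had 118, 103 and 49.0 in Klf5 LKO, compared with 71.7, 39.5 and 37.6 in control. Its highest control library exceeded its lowest Klf5 LKO library, and the log2 fold change of 0.82 (95% confidence interval -0.23 to 1.86) did not pass (adjusted p = 0.590). Nupr1, a small stress-induced chromatin protein, had 2036, 853 and 1923 in Klf5 LKO, against 952, 858 and 1705 in control. Here the high libraries were Klf5 LKO 1, Klf5 LKO 3 and control 3, so the spread within each group was larger than the difference of the means. Cebpb, a leucine zipper factor that pairs with ATF4, had 1914, 2023 and 1388 in Klf5 LKO, against 1693, 1377 and 1056 in control (log2 fold change 0.38, adjusted p = 0.530). Of the exon bases of Cebpb, 20.7% overlap exons of Tmem189 on the opposite strand, and the counting is not stated to use strand.

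**Figure D3:**
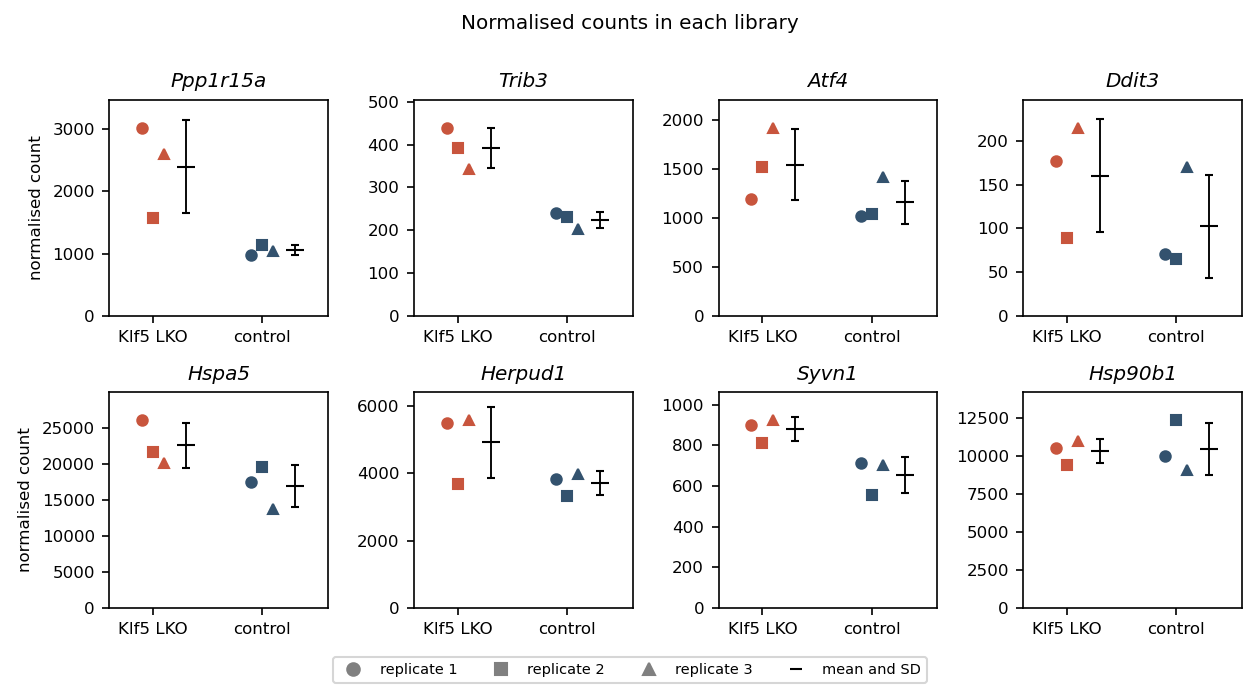
Normalised counts (y axis, from 0) of 4 ATF4 arm genes (top) and 4 ER genes (bottom) in each library, with Klf5 LKO left of control, a symbol per replicate, and the mean with its SD in black. Ppp1r15a, Trib3, Hspa5 and Syvn1 have no overlap between groups, while Ddit3 and Atf4 are highest in replicate 3 of both groups and Hsp90b1 overlaps.

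None of the amino acid genes of the arm passed. Asns, which makes asparagine, had 280.2, 456 and 258 in Klf5 LKO, compared with 175, 399.9 and 173 in control, so that replicate 2 stood highest in both groups (log2 fold change 0.48, 95% confidence interval -0.28 to 1.24, adjusted p = 0.669). Phgdh and Psat1 catalyse successive steps of serine synthesis. Phgdh had 1512, 1628 and 1054 in Klf5 LKO, against 1670.0, 1449 and 1558 in control, and Psat1 had 333, 546 and 451 in Klf5 LKO, against 453, 431 and 413 in control. Both overlapped between groups, with log2 fold changes of -0.18 (95% confidence interval -0.55 to 0.19) and 0.0082 (-0.46 to 0.48). Wars, the tryptophanyl-tRNA synthetase, had 1926, 1766 and 1039 in Klf5 LKO, compared with 1554, 1473 and 1577 in control (log2 fold change -0.010, 95% confidence interval -0.45 to 0.43). Vldlr, the very low density lipoprotein receptor, whose rise under ER stress runs through PERK and ATF4, had 437, 427 and 997 in Klf5 LKO, against 419, 408 and 804 in control. The high library was replicate 3 in both groups, and the other 4 libraries lay between 408 and 437.

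None of the 18 ER chaperone and ERAD genes passed with limma, DESeq2 or edgeR, and 4 of them had an unadjusted p under 0.05, all higher in Klf5 LKO. Among all tested genes 4.95% had such a p and were higher. Hspa5, which codes for BiP, the main ER chaperone and the brake on all 3 sensors, had 26024, 21597 and 20072 in Klf5 LKO, against 17405, 19547 and 13717 in control. The groups did not overlap, although Klf5 LKO 3 and control 2 differed by little. The log2 fold change was 0.42 (SE 0.16, 95% confidence interval 0.085 to 0.76), or 1.34-fold, with adjusted p = 0.324 by limma and 0.116 by DESeq2. It lies on chromosome 2, 34771970 to 34777547, plus strand.

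None of the 14 ER chaperones passed, Hspa5 included, and for the other abundant ones the groups overlapped. Hsp90b1, which codes for GRP94, the HSP90 of the ER, had 10539, 9445 and 11007 in Klf5 LKO, compared with 10023, 12379.7 and 9090.3 in control (log2 fold change -0.014, 95% confidence interval -0.31 to 0.28). Of its exon bases 10.3% overlap an opposite-strand gene, 1810014B01Rik. Calr and Canx code for calreticulin and calnexin, the lectins that hold glycoproteins during folding. Calr had 3465, 4763 and 3845 in Klf5 LKO, against 4546, 5468 and 4192 in control (log2 fold change -0.24, 95% confidence interval -0.56 to 0.086), and Canx 14982, 13664 and 14519.8 in Klf5 LKO, against 14338, 16377 and 14612 in control (-0.069, -0.32 to 0.19). The disulfide isomerases Pdia3, Pdia4 and Pdia6 had log2 fold changes of 0.086, -0.033 and 0.089, with intervals inside -0.36 to 0.45. Hyou1, a large HSP70 relative that recharges BiP, had 961, 931 and 634 in Klf5 LKO, compared with 949.9, 1268 and 791 in control.

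The BiP cofactors and the small secreted members differed in sign. Dnajb9, which codes for ERdj4, a J-protein induced through XBP1, had 551, 467 and 506 in Klf5 LKO, against 403, 364 and 446 in control. The groups did not overlap, and the log2 fold change of 0.33 (95% confidence interval -0.073 to 0.73) did not pass (adjusted p = 0.571). Manf, a small ER protein that is secreted under stress, had 1317, 1076 and 1161 in Klf5 LKO, against 1104, 889.8 and 786 in control (log2 fold change 0.36, adjusted p = 0.453). Among the others, the J-proteins Dnajb11 and Dnajc3 had log2 fold changes of -0.062 and -0.14, Sdf2l1, a partner of Dnajb11, 0.048, and Creld2, an ER protein with isomerase activity, 0.15.

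In ERAD, Syvn1 and Herpud1 had the highest log2 fold changes, and neither passed. Syvn1, the ubiquitin ligase HRD1 through which misfolded proteins leave the ER, had 902, 814 and 923 in Klf5 LKO, compared with 712, 553 and 701 in control, with no overlap (log2 fold change 0.43, 95% confidence interval 0.071 to 0.79, adjusted p = 0.351). Herpud1, a membrane protein that organises that ligase complex, had 5485, 3694 and 5572 in Klf5 LKO, against 3818, 3309 and 3979.7 in control, with Klf5 LKO 2 inside the range of control (log2 fold change 0.39, 95% confidence interval 0.033 to 0.74, adjusted p = 0.410). Sel1l, the partner of the ligase, had 2747, 2771 and 3149 in Klf5 LKO, against 2482, 2755 and 3243 in control. Edem1, which marks glycoproteins for removal, had 1301, 1009 and 709 in Klf5 LKO, compared with 1241, 1279 and 1009.9 in control (log2 fold change -0.26, 95% confidence interval -0.71 to 0.19).

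None of the 4 sensor genes passed, with limma, DESeq2 or edgeR, and 0 had an unadjusted p under 0.05. Xbp1 was the most abundant, at 7890.1, 5999 and 6602 in Klf5 LKO, against 8986, 7171 and 5705 in control, with ranges that cross (log2 fold change -0.078, 95% confidence interval -0.44 to 0.29). Eif2ak3 had 3359, 3238 and 2896 in Klf5 LKO, against 2781, 2560.3 and 3021 in control (0.18, -0.087 to 0.45). Atf6 had 1011, 1285 and 1099 in Klf5 LKO, compared with 1136, 1233 and 1105 in control (-0.039, -0.36 to 0.28). Ern1 was the least abundant and the most variable, at 213, 145 and 63.9 in Klf5 LKO, against 146, 82.2 and 207 in control, and its interval of -1.13 to 0.91 leaves a large change in either direction possible.

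Over the 36 genes, the groups did not overlap for 5, all higher in Klf5 LKO. These were Ppp1r15a, Trib3, Hspa5, Dnajb9 and Syvn1, or 13.9%, against 7.72% of all tested genes without overlap and higher. No member was without overlap and lower (0 of 36, against 7.88%). The members of the ATF4 arm varied more between libraries of a group than the ER genes did. Their median coefficient of variation was 27.0% in Klf5 LKO and 21.1% in control, against 11.97% in Klf5 LKO and 13.6% in control for the 18 ER chaperone and ERAD genes, which were also the more deeply counted (median of the gene means 2727, against 966 in the ATF4 arm). Replicate 3 was the highest library in both groups for 4 of the 14 ATF4 arm genes, Atf4, Atf5, Ddit3 and Vldlr, and for 3 of the 18, Dnajb11, Herpud1 and Sel1l. A shared number does not mark a shared animal or batch in the labels.

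**Figure D4:**
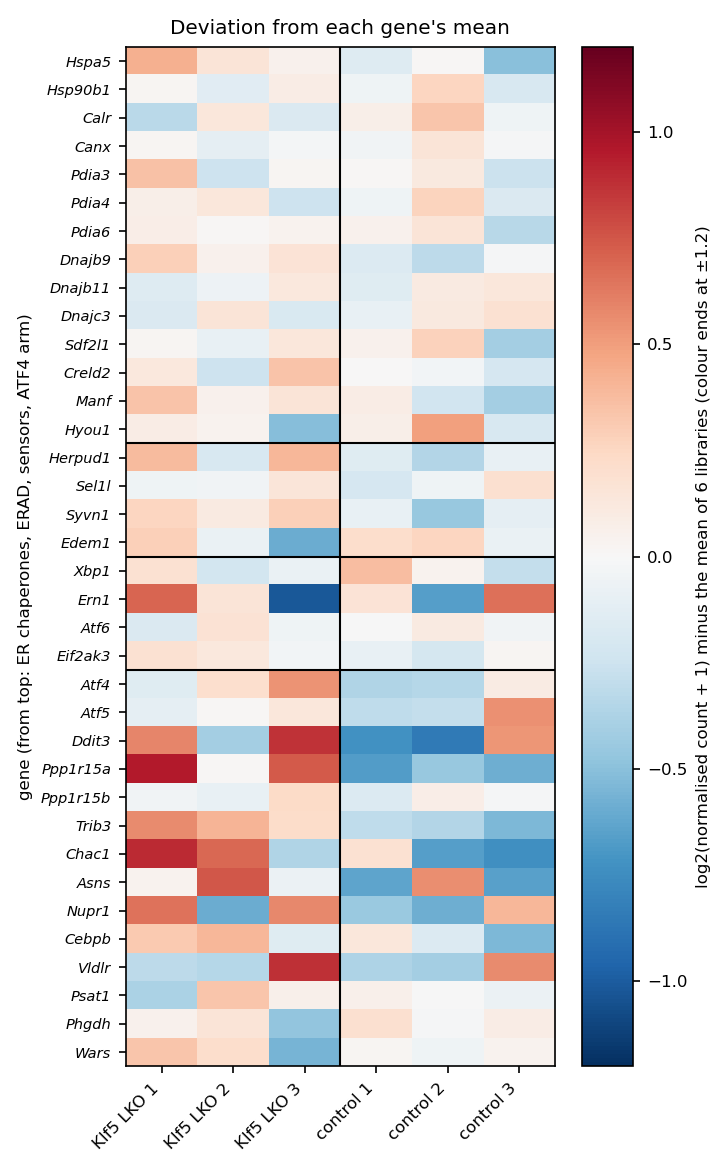
Each cell is log2(normalised count + 1) of a gene (rows, grouped by role from ER chaperones at the top to the ATF4 arm at the bottom) minus its mean over the 6 libraries (columns, Klf5 LKO left of control). Trib3 and Ppp1r15a are at or above their mean in all 3 Klf5 LKO libraries and below it in all 3 control libraries, Vldlr and Ddit3 are high in replicate 3 of both groups, and among the ER chaperones Hspa5 runs from -0.50 to 0.43 and Hyou1 from -0.51 to 0.49.

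Per kilobase of exon, so that genes can be compared with each other, Pdia3 and Hspa5 stood highest. Pdia3, a glycoprotein-folding disulfide isomerase, had 8689 ± 1812 normalised counts per kilobase in Klf5 LKO and 8115 ± 1059 in control, and Hspa5 5336 ± 731 in Klf5 LKO and 3994 ± 697 in control (SD, n = 3 each). The lowest were Atf5, at 15.7 ± 1.33 in Klf5 LKO and 16.0 ± 5.99 in control, and Ern1, at 17.2 ± 9.12 in Klf5 LKO and 17.8 ± 7.65 in control, which do not differ beyond their spread. Within the ATF4 arm, Cebpb led with 1180 ± 225 per kilobase in Klf5 LKO and 914 ± 212 in control. Ppp1r15a came next in Klf5 LKO, at 817 ± 254, whereas in control, at 358 ± 27.1, it lay below Phgdh (627 ± 44.4), Atf4 (491 ± 93.9), Nupr1 (466 ± 185) and Wars (445 ± 15.8).

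**Figure D5:**
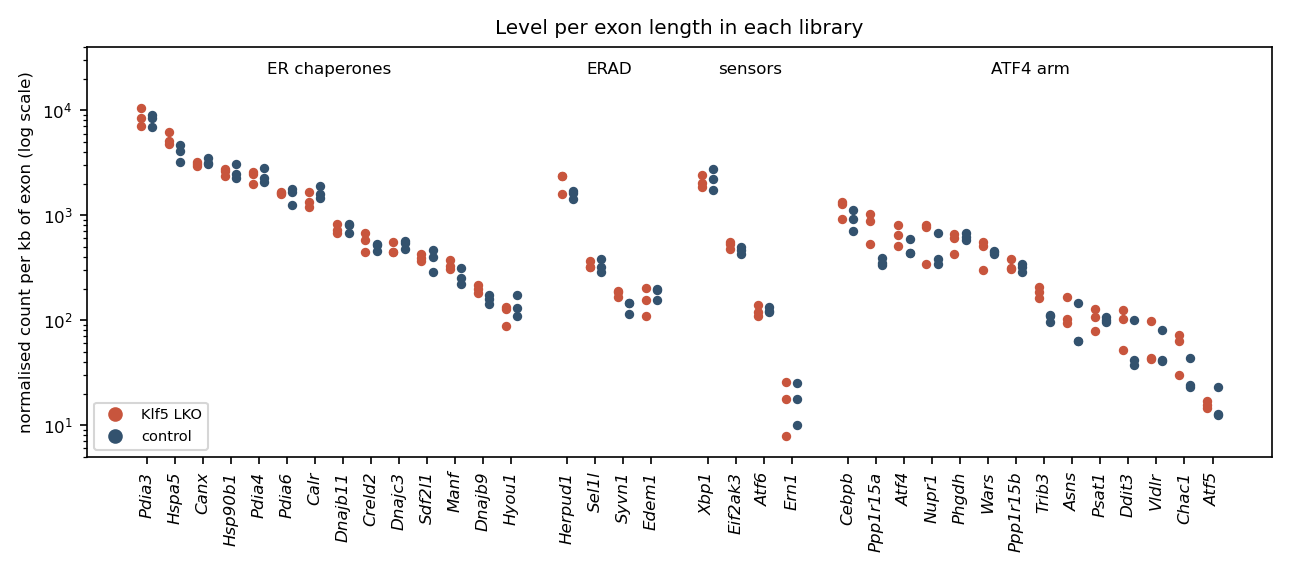
Normalised count per kilobase of exon (y axis, log scale) of each gene in each library, ordered within each role by the Klf5 LKO mean, with Klf5 LKO left of control for each gene. Levels span from a Klf5 LKO mean of 8689 for Pdia3 to 15.7 for Atf5, and Ppp1r15a and Trib3 are the ATF4 arm genes whose groups separate.

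A wider list of the same pathway gave few calls. Of 59 tested genes for ER folding, translocation, ERAD and ER stress factors outside the 36, 0 passed with limma or edgeR, 3 higher and 1 lower had an unadjusted p under 0.05, and DESeq2 called 1 higher and 1 lower. The 3 are 5.08%, against 4.95% of all tested genes, and 6.78% were higher without overlap, against 7.72%, so the list as a whole was near the background. Given as values, the 4 with the smallest p were Wfs1, Sec62, Fkbp14 and Creb3. Wfs1, which codes for wolframin, an ER membrane protein that restrains ER stress signalling, had 395, 449 and 377 in Klf5 LKO, against 718, 719 and 604 in control (log2 fold change -0.74, 95% confidence interval -1.13 to -0.35, adjusted p = 0.0994 by limma and 0.0169 by DESeq2). Sec62, a translocon subunit and receptor for the recovery of the ER after stress, had 3173, 2528 and 2665 in Klf5 LKO, compared with 1884, 2119 and 1992 in control (log2 fold change 0.48, adjusted p = 0.163 by limma and 0.0322 by DESeq2). Neither gene overlapped between groups. Fkbp14, an ER prolyl isomerase, and Creb3, an ER-tethered transcription factor, had log2 fold changes of 0.73 and 0.30 and did not pass (adjusted p = 0.380 and 0.445).

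Of 50 tested genes for eIF2 kinases, translation initiation and ATF4 targets outside the 36, 1 rose and 0 fell with limma. Among all tested genes limma called 0.163% higher and 0.489% lower. At an unadjusted limma p under 0.05, 8 of the 50 were higher (16%) and 2 lower, against 4.95% and 5.92%. DESeq2 called 1 higher (Gdf15) and 1 lower (Slc1a5), against 0.883% and 1.6% of all genes. With edgeR 1 was higher and 0 lower, against 0.133% and 0.489%. Without overlap, 7 were higher (14%) and 4 lower, against 7.72% and 7.88%. The gene that rose was Gdf15, a secreted stress hormone that ATF4, CHOP and p53 induce. It had 459, 358 and 525 in Klf5 LKO, against 138, 188 and 199 in control, without overlap, and was 2.55-fold higher (log2 fold change 1.35, SE 0.25, interval 0.81 to 1.89, adjusted p = 0.0322). The median log2 fold change of these 50 genes was 0.099, and 31 of them (62%) had higher means in Klf5 LKO, against 49.2% of all tested genes. As for Ppp1r15a, the call of Gdf15 was kept without Klf5 LKO 2 (adjusted p = 0.0402) and ended without each of the other 5 libraries (0.0635 to 0.159), with log2 fold changes of 1.19 to 1.501 over these fits. It also ended with no filter (0.0552), with limma-voom (0.0589) and with the leukocyte or the immediate early score as a covariate (0.0690 and 0.150).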

How the data were processed

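Samples were grouped by title into 3 Klf5 LKO and 3 control libraries of bile duct cells. Per the labels' protocols they were made from 4 ng of total RNA by 10 pre-amplification and 7 enrichment PCR cycles, so reads are not independent molecules. TopHat, Bowtie2, DESeq2 and mm10 are named in the submitters' processing notes. For versions, counting tool, annotation and strand handling, nothing is given in the sources used here. The authors deposited a signal table in which 100% of values are whole reads (tolerance 0.001) after division by a size factor of that library. The authors' deposited comparison table holds log2 fold changes with their standard errors, shrunken towards 0 judged from the values, and, per the file headers, a Wald statistic (a score) beside raw and adjusted p-values.

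The test was limma 3.58.1 in R 4.3.3 (lmFit, eBayes with trend) on log2(value + 1), a pseudocount of 1 that understates changes of low genes, restricted to 13490 genes whose mean reached 10. It was two-sided, with Benjamini-Hochberg adjustment over all tested genes and a threshold of 0.05. Adjusted p-values are from this fit unless another tool is named. All 36 members passed the filter. Counts recovered from the deposited signal were tested with edgeR 4.0.16 quasi-likelihood, DESeq2 1.42.0 and limma-voom as alternatives. The fits were run on simulated data with the same dispersion (spread between replicates) for every gene. That run does not show how they perform on the members, whose spread differs. The members and gene lists were chosen with earlier results of these data known. Before the closing observations, the genes named outside the members are Klf5, markers, genes overlapping a member, and called genes of the wider list. Where a part of that list had no call, the 4 with the smallest p are named. Further genes in the closing observations were chosen after their values were seen. GENCODE M21 (GRCm38, that is mm10) gave positions and exon lengths for all 36 symbols. Promoters come from RefSeq on GRCm38.p6. Protein sequences were not used here. The searches for the short ER stress element and TGACGTCA were added after the data were seen. At this depth 3 reads correspond to 2.24 to 4.74 normalised counts, which covers counting error only.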

Additional observations from a re-analysis of the deposited data

How the results depend on the processing

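Of 647 values of the 36 genes under 18 alternatives, 583 kept direction and side of the threshold, 56 changed direction and 8 lost the call. All 8 losses were of Ppp1r15a, the only member called. For the other members, keeping the side meant staying uncalled. A minimum mean of 50 left Atf5 untested. The members called higher were 1 by limma and 0 with no filter (Ppp1r15a adjusted p = 0.0539), limma-voom or the immediate early score as a term. The count was 0 to 1 when 1 library was left out, and 0 were called lower throughout. Calls over all tested genes also varied, with 22 higher by limma and 13 with no filter. Higher calls were 15 with limma-voom, 15 with the leukocyte score and 8 with the immediate early score. Without Klf5 LKO 1, 2 or 3 they were 22, 11 and 9, and without control 1, 2 or 3 they were 4, 1 and 10. The other pathway genes called higher were 0 with no filter, limma-voom, the leukocyte score or the immediate early score, 2 with DESeq2 and 0 to 1 when 1 library was left out, and DESeq2 called 2 lower. The median log2 fold change of the ATF4 arm was 0.25 to 0.39 and that of the ER chaperone and ERAD arm -0.039 to 0.14 when 1 library was left out. Their difference was 0.35 over all libraries and 0.14 to 0.43 when 1 was left out, lowest without control 2. With the immediate early score the ATF4 median was 0.16 and the difference 0.082. The cause of these shifts was not tested.

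The changes of direction were all in genes that did not pass in either fit. Leaving out 1 library gave ranges of -0.11 to 0.11 for Hsp90b1, -0.068 to 0.23 for Pdia3, -0.13 to 0.094 for Pdia4, -0.057 to 0.19 for Pdia6, -0.15 to 0.00098 for Dnajb11, -0.14 to 0.20 for Sdf2l1, -0.052 to 0.14 for Sel1l, -0.24 to 0.085 for Xbp1, -0.49 to 0.37 for Ern1, -0.13 to 0.039 for Atf6, -0.12 to 0.31 for Atf5, -0.034 to 0.13 for Ppp1r15b, -0.26 to 0.46 for Vldlr, -0.16 to 0.20 for Psat1, -0.30 to 0.012 for Phgdh and -0.18 to 0.27 for Wars. With the leukocyte score, Hsp90b1 was 0.045, Sel1l -0.036, Xbp1 0.096, Atf5 -0.15, Vldlr -0.046, Psat1 -0.073 and Wars 0.011. With the immediate early score, Pdia4 was 0.14, Hyou1 0.018, Sel1l -0.078, Xbp1 0.010, Ern1 0.085, Atf6 0.019, Atf5 -0.19, Ppp1r15b -0.026, Nupr1 -0.0022, Vldlr -0.40 and Wars 0.21. Atf5 was -0.031 with DESeq2, -0.032 with edgeR and -0.011 with limma-voom, and Wars 0.040, 0.037 and 0.0029. Psat1 was -0.00019 with upper quartile scaling.

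Same-numbered libraries did not deviate together in every pair (correlations of deviations 0.185, -0.0116 and 0.106 for numbers 1, 2 and 3), and the numbers are not stated to pair them. Klf5 LKO 2 correlated best with control 3 (0.138). The replicate block called 27 genes higher and 83 lower over all genes, against 22 and 66 without it, and 1 member higher, Ppp1r15a (log2 fold change 1.14, adjusted p = 0.0328). No scaling moved the median of all genes by more than 0.01. With 3 libraries a group, the intervals of the sparse members Atf5, Ern1 and Chac1 span more than 2 log2 units.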

Other observations

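Genes of the ATF4 programme for amino acid supply, chosen after their values were seen, differed in direction. Over the 50 tested genes for eIF2 kinases, translation initiation and ATF4 targets, 7 were higher without overlap (14%) and 4 lower. Among all tested genes 7.72% were higher without overlap and 7.88% lower. Slc6a9, a glycine transporter, had 469, 456 and 478 normalised counts in Klf5 LKO, against 359.6, 142 and 289.6 in control, without overlap (log2 fold change 0.93, adjusted p = 0.266 by limma). Slc1a5, the glutamine carrier ASCT2, had 421, 479 and 442 in Klf5 LKO, compared with 609.7, 836 and 775 in control, also without overlap (log2 fold change -0.71, adjusted p = 0.126 by limma and 0.0234 by DESeq2). Slc7a5, Got1 and Mthfd1l were also lower, each at a log2 fold change of -0.46. Got1 and Mthfd1l were without overlap and Slc7a5 overlapped. None of them passed (adjusted p = 0.437 for Slc7a5, 0.470 for Got1 and 0.479 for Mthfd1l by limma). The scarce targets Stc2, a secreted glycoprotein, and Aldh1l2, a mitochondrial folate enzyme, were higher in every Klf5 LKO library. Stc2 had 26, 14 and 26 reads in Klf5 LKO, against 4, 0 and 0 in control, and Aldh1l2 had 91, 23 and 26 reads in Klf5 LKO, against 1, 4 and 12 in control, and neither passed (adjusted p = 0.323 and 0.349 by limma). Slc7a11, the cystine carrier, had 8, 295 and 101 reads in Klf5 LKO, compared with 11, 0 and 18 in control, so its difference rests on Klf5 LKO 2 and 3. The remaining genes without overlap were Gdf15, given above, Aars, Eif4ebp1 and Vegfa, all higher, and Eif2b4, lower. Aars, Eif4ebp1, Vegfa and Eif2b4 had log2 fold changes of 0.35, 0.36, 0.30 and -0.26. None of these 4 passed (adjusted p = 0.373, 0.414, 0.393 and 0.628 by limma).

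The other eIF2 kinases were also looked at after their values were seen. Eif2ak1, the kinase that senses heme shortage, had 794, 1065 and 1129 normalised counts in Klf5 LKO, against 1192, 1027 and 1533 in control (log2 fold change -0.33, 95% confidence interval -0.74 to 0.085). Eif2ak4, which senses uncharged tRNA, had a log2 fold change of 0.045 and Eif2ak2, which senses double-stranded RNA, of 0.26, and none of the 3 passed (adjusted p = 0.583, 0.968 and 0.681 by limma). Ern2, the IRE1 form of mucosal epithelium, was listed at 0 in all 6 libraries. Atf3, an ATF4 target and immediate early gene, had 4409.7, 6134 and 14206 in Klf5 LKO, against 4415, 5544 and 8692 in control, with replicate 3 highest in both groups (adjusted p = 0.830 by limma).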
